A study of Homo sapiens with 4 samples.

Results

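The cytosolic ribosomal protein genes were taken by symbol, as RPL or RPS followed by a number, together with RPLP0, RPLP1, RPLP2 and RPSA. After the number only a single letter A, X or L and further digits were allowed. The rule found 84 of the 17894 genes listed, or 0.469% of them. Of these, 52 code for proteins of the large ribosomal subunit and 32 for proteins of the small subunit. The rule also takes in 7 paralogs, close relatives that arose from a ribosomal protein gene (RPL3L, RPL7L1, RPL10L, RPL22L1, RPL26L1, RPL39L and RPS27L), which leaves 77 members without them. The rule itself reads symbols and no measured value.

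The libraries came from H1, a human embryonic stem cell (hESC) line, which was driven toward blood on mAGM-S3 mouse stromal cells. Human cells were sorted by the surface antigen TRA-1-85 on day 2, and their RNA was measured by bulk RNA-SEQ. There were 4 libraries: wild type H1 without added ligand (control), wild type H1 given 20 ng/mL R-spondin2 during the first day, and H1 lines LGR4-/- clone 1 and LGR4-/- clone 2, which were not given R-spondin2. R-spondin2 is a secreted protein that strengthens WNT signals, and LGR4 is one of its receptors. Control and R-spondin2 had 1 library each, and each LGR4-/- clone was a separate line with 1 library. The differences below thus have no replicate check and no p-value is given. The control served in both comparisons. LGR4 RNA stood at 21.8 FPKM in the control, 24.3 with R-spondin2, 7.4 in clone 1 and 13.95 in clone 2, so it was lower in the clones but still read there. FPKM counts fragments relative to transcript length and to all mapped fragments, so levels of different genes are given per length.

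Ribosomal proteins wrap the ribosomal RNAs of the small subunit, which reads the mRNA, and of the large subunit, which joins amino acids. Almost all of them sit in the ribosome in a single copy, and their mRNAs are among the most abundant of a growing cell. Many of these mRNAs begin with a C followed by a run of C and T, the terminal oligopyrimidine (TOP) tract, through which growth signals acting by mTOR and LARP1 control their translation. Loss of a copy of several of these genes causes Diamond-Blackfan anaemia, a failure of red cell production.

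The start sites are shown first because the TOP tract is what most of these genes share. Each line holds 30 bases of the gene strand, 5′ to 3′, with the RefSeq start of the transcript in the middle (15 bases on each side) and the longest run of C and T in capitals. Where RefSeq lists several starts, the one with the longest run is shown. The set comprises highly expressed members, a pair of disease genes and the paralog pairs that could be matched.
RPLP1: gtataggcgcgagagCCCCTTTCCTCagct
RPL41: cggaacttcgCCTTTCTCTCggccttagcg
RPS18: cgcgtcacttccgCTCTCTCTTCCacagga
RPS6: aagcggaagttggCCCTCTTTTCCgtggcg
RPS19: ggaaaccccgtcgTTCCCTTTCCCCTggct
RPL11: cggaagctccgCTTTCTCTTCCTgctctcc
RPL39: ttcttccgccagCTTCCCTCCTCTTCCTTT
RPL22: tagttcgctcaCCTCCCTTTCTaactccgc
RPL22L1: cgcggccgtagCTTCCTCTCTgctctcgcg
RPL26: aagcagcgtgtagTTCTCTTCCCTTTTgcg
RPL26L1: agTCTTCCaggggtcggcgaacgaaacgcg
RPS27: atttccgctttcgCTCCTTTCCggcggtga
RPS27L: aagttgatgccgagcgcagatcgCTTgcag
RPL10: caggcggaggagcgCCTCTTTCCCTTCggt
RPL10L: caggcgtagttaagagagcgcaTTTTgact
RPL7L1: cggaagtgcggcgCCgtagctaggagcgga

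In RefSeq's build GRCh38.p14 these windows lie at chr15:69452803-69452832 for RPLP1, chr12:56116618-56116647 for RPL41, chr6:33272060-33272089 for RPS18, chr19:41860240-41860269 for RPS19, chr1:23691791-23691820 for RPL11, chr1:153990747-153990776 for RPS27, chrX:154398362-154398391 for RPL10, chr5:172958714-172958743 for RPL26L1 and chr6:42879601-42879630 for RPL7L1, all on the plus strand. On the minus strand lie chr9:19380222-19380251 for RPS6, chrX:119791616-119791645 for RPL39, chr1:6199581-6199610 for RPL22, chr3:170870181-170870210 for RPL22L1, chr17:8383179-8383208 for RPL26, chr15:63157463-63157492 for RPS27L and chr14:46651767-46651796 for RPL10L. Every window spans a promoter end and the first bases of the first exon of its transcript. The upper 7 lines, RPL22, RPL26, RPS27 and RPL10 carry runs of 9 to 18 bases across the start or from it onward. Of the paralogs shown, RPL22L1 has such a run of 10 bases, while the longest runs of RPL26L1, RPS27L, RPL10L and RPL7L1 are 6, 3, 4 and 2 bases.

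RefSeq windows were found for 67 of the 84 members, 83 windows in all because some genes have several starts. A TOP-like start, here a C within 2 bases of the annotated start followed by at least 4 letters that are all C or T, was present in 50 of the 62 members without the paralogs that had a window (80.6%). The same letters were found in 13.0% of all 27305 genes of the table, in 16.7% of the genes that averaged 1 FPKM or more in these libraries and in 22.8% of the non-members of at least 100 FPKM. Translation elongation and initiation factors, many of whose mRNAs are also known to carry a TOP tract, had it in 13 of 28 genes with a window (46.4%). Among the paralogs, 1 of 5 had a TOP-like start. The longest run of C and T within the 30 bases had a median of 10 bases over the members' windows and of 4 over all 35116 windows, and it reached 8 bases in 67.5% and 13.7% of them. A match of letters is a description of the reference and not a measured transcript start. The plot of run lengths shows both distributions.

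**Figure D1:**
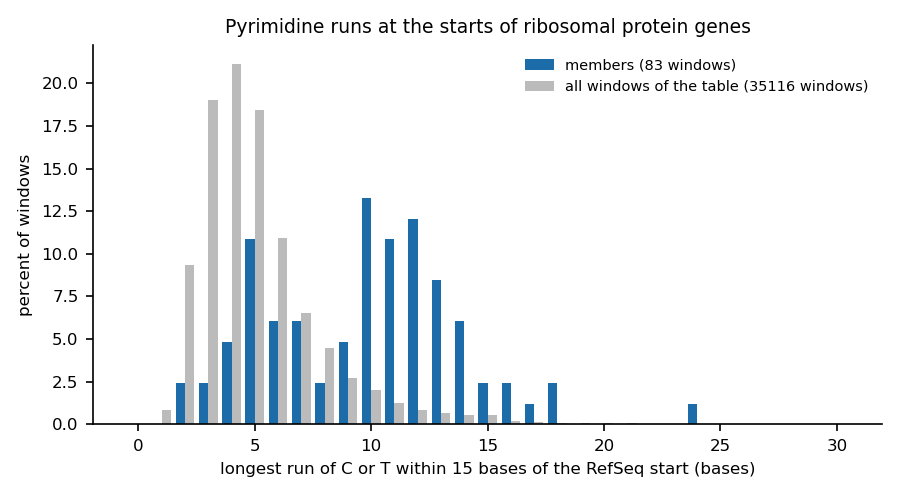
Percent of windows (vertical axis) by the longest run of C or T in bases within 15 bases of the RefSeq start (horizontal axis), for 83 windows of ribosomal protein genes (blue) and 35116 windows of all genes (grey). The members' windows centre on a median of 10 bases and all windows on 4.

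Further letters were searched on either strand of the 300 bases from 250 before to 50 after each start. GATGGCG, the core of sites for the transcription factor YY1, was found in 26.9% of the members with a window, 5.11% of all genes of the table, 9.31% of the genes that averaged 1 FPKM or more and 9.94% of the non-members of at least 100 FPKM. CCGGAAG, the core of sites for ETS factors, was found in 35.8%, 12.2%, 22.3% and 24.7% of the same sets. TATAAA, the core of the TATA box, was found in 10.4%, 14.0%, 7.87% and 13.3%, so the members lay between the backgrounds. GATGGCG can follow CCGGAAG with the last G of one string as the first of the other, so a stretch of sequence can count for both. No statement about factor binding follows from these letters. The start type went with no clear difference in level: the 50 members with a TOP-like start had a median of 1094 FPKM (mean over the 4 libraries) and the 12 without one 1048 FPKM.

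The ribosomal protein genes held a similar share of all FPKM in every library, and the libraries differed by less than 1 percentage point from the lowest to the highest. The share was 19.6% in the control, 19.3% with R-spondin2, 20.3% in clone 1 and 19.9% in clone 2, with a mean of 20.1% ± 0.273 (SD, n = 2) over the clones. The difference from the control was -0.369 percentage points with R-spondin2, 0.625 in clone 1 and 0.239 in clone 2, while the clones differed from each other by 0.386 points. The highest and the lowest library differed by 0.994 points. In FPKM, the members' sum with R-spondin2 was 97.5% of the control's sum, against 99.9% for all other genes, and the members' sums of clone 1 and clone 2 were 103.2% and 101.4%.

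The large subunit took 11.0% of all FPKM in the control, 10.8% with R-spondin2, 11.4% in clone 1 and 11.1% in clone 2. The small subunit took 8.64%, 8.45%, 8.90% and 8.77% in the same order. The balance between the subunits hardly moved: the summed FPKM of the large subunit was 1.27, 1.28, 1.28 and 1.27 times that of the small subunit. The paralogs added little, with 0.238%, 0.279%, 0.237% and 0.251% of the members' sum. The stacked plot of shares shows both subunits by library.

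**Figure D2:**
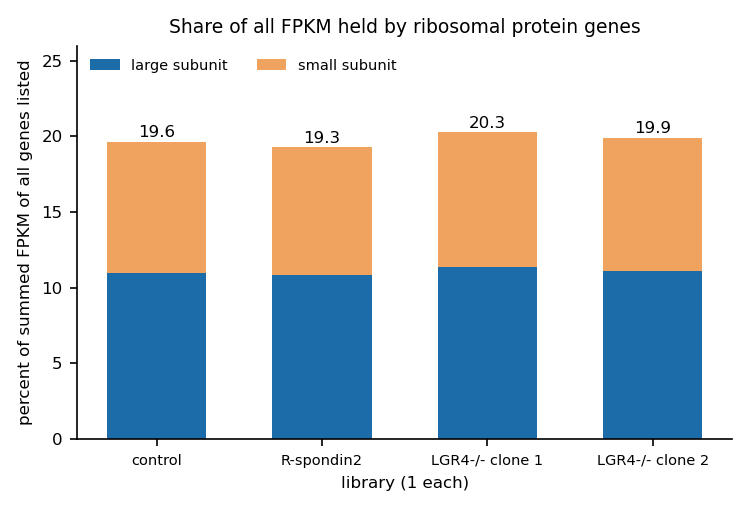
Percent of the summed FPKM of all 17894 genes (vertical axis, from 0) held by large-subunit (blue) and small-subunit (orange) genes in each of the 4 libraries (horizontal axis), with the total printed above each bar. The totals run from 19.3% with R-spondin2 to 20.3% in clone 1.

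The summed pluripotent cell markers followed the order of this share, and the summed early mesoderm markers its reverse. The sums of the other marker lists followed neither. The 6 pluripotent cell markers (POU5F1, NANOG, SOX2, LIN28A, DPPA4 and TDGF1, all of at least 1 FPKM) summed to 1083 FPKM with R-spondin2, 1322 in the control, 1968 in clone 2 and 2106 in clone 1, which is the order of the ribosomal share. POU5F1 is the largest part of this sum, and 4 of the 6 genes followed its order, the others being NANOG and TDGF1. The 7 early mesoderm markers (T, MIXL1, EOMES, MESP1, APLNR, HAND1 and GSC, all of at least 1 FPKM) summed to 1430 FPKM with R-spondin2, 1082 in the control, 586 in clone 2 and 375 in clone 1, the reverse order, which all 7 genes followed. Their part in the share was not tested. Of the 8 fibroblast-like stroma markers 6 reached 1 FPKM, and their sums of 238 (control), 297 (R-spondin2), 216 (clone 1) and 247 FPKM (clone 2) did not follow the same order. The 4 blood markers summed to between 3.79 and 5.14 FPKM and were led by SPN, and the 3 neuroectoderm markers to at most 1.01 FPKM. No listed marker was at 0 in every library. In bulk RNA, fewer cells of a type and less RNA per cell cannot be told apart.

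The members stood at the top of the transcriptome. In each library 14 of the 20 highest genes and 64 to 66 of the 100 highest genes were members, and RPS2 was the highest of all 17894 genes by mean. The median level of the 77 members without the paralogs was 1083 FPKM in the control, 1068 with R-spondin2, 1103 in clone 1 and 1101 in clone 2, where the median of all genes of at least 1 FPKM was between 10.4 and 10.5 FPKM. Large-subunit genes had medians of 1061, 1036, 1081 and 1055 FPKM and small-subunit genes of 1112, 1091, 1149.7 and 1119 FPKM, in the same order of libraries.

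Although nearly every protein is needed in a single copy, the levels per length spanned a wide range among the members. The highest exceeded the lowest of the 77 members by 15.8 times in the control, 16.1 with R-spondin2, 15.4 in clone 1 and 15.4 in clone 2. Most lay close together, since 63 of the 77 were within 2 times of the median, above or below, in each library. The order of the members was nearly the same in every library (Spearman's rho between 0.989 and 0.997 over 77 genes for the 6 pairs of libraries, a description across genes that share cell line, protocol and transcript lengths). The plot of members by library shows points of the 4 libraries lying on each other except among the paralogs.

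**Figure D3:**
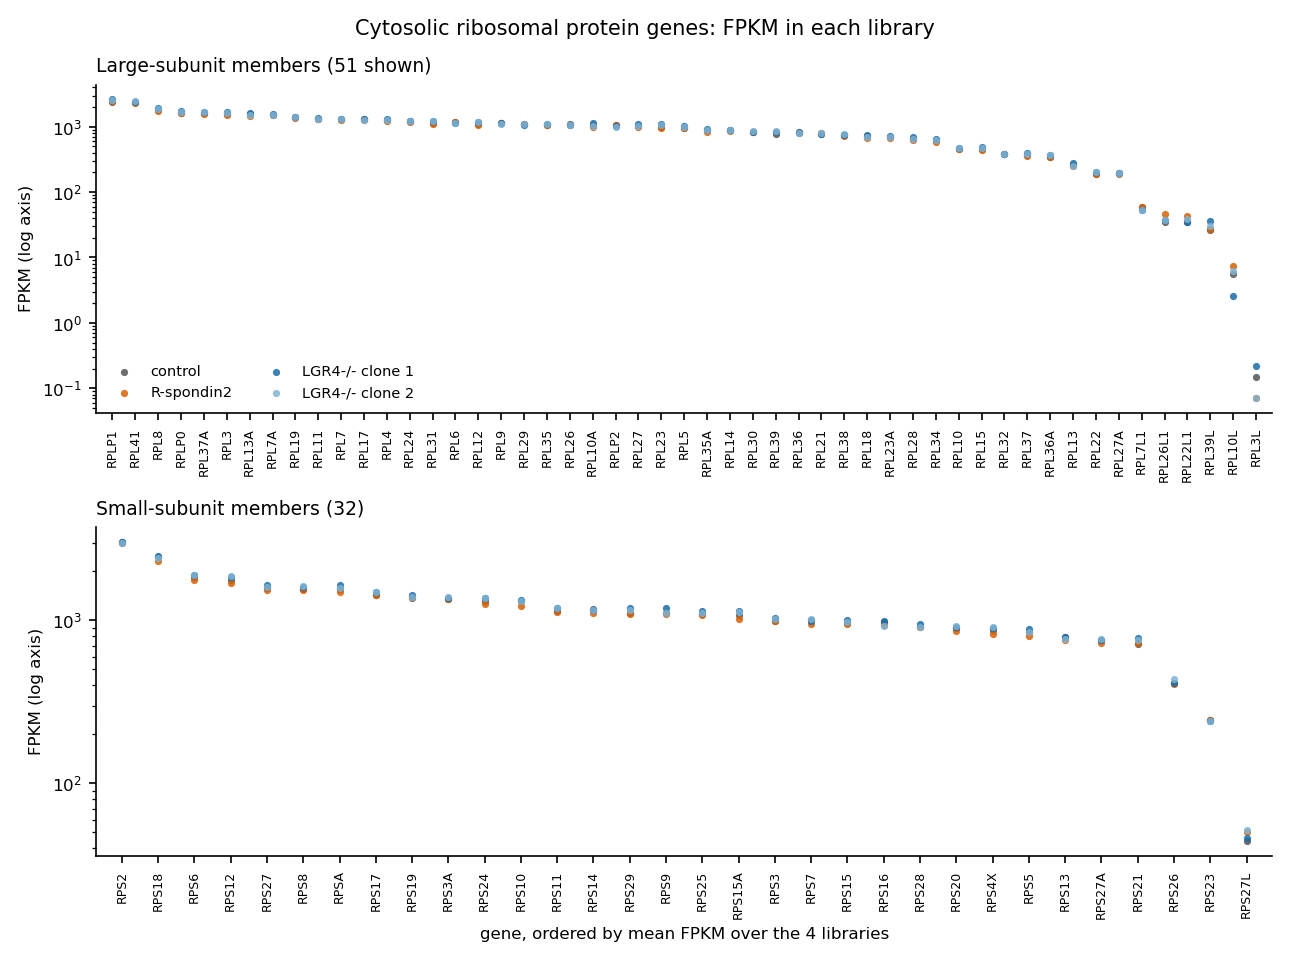
FPKM on a log axis (vertical) of 51 large-subunit and 32 small-subunit members (horizontal, ordered by mean), with 1 point for each of the 4 libraries. The members fall from about RPS2 and RPLP1 at the left to the paralogs at the right, where the points of the libraries separate.

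RPS2, a small-subunit protein at the mRNA entry, stood at 3030.35 FPKM in the control, 2990.2 with R-spondin2, 3029 in clone 1 and 2968 in clone 2. RPLP1, an acidic protein of the flexible stalk that recruits elongation factors, stood at 2433, 2469, 2618 and 2569.85 FPKM in the same order. RPL41, a very short peptide between the subunits, stood at 2403, 2348, 2424 and 2516 FPKM. These were the 3 highest members, and no library was the highest for all of them. RPS18, a protein of the small subunit's head, stood at 2444, 2329, 2469 and 2413 FPKM. RPS6, the member that S6 kinase phosphorylates, stood at 1836, 1775, 1905 and 1897 FPKM. Both were lowest with R-spondin2 and highest in clone 1. The 5 highest members together held 14.1% to 14.3% of the members' sum.

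Bands of the mean level place the rest. Above 2000 FPKM lay 4 members (RPS2, RPLP1, RPL41 and RPS18), between 1500 and 2000 FPKM lay 11, between 1000 and 1500 lay 30, and between 500 and 1000 lay 22. The second band holds RPLP0, the base of the stalk, RPL3 at the peptidyl transferase centre and RPSA, also known as a laminin receptor. The 10 members below 500 FPKM were RPL10, RPL15, RPS26, RPL32, RPL37, RPL36A, RPL13, RPS23, RPL22 and RPL27A, of which 8 belong to the large subunit. The least abundant, RPL27A, had a mean of 193 FPKM and RPL22, an RNA-binding protein that is dispensable for translation in general, 197 FPKM. RPL27A and RPS23 were picked out after their values were seen.

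Long reference transcripts were found among the lowest members and also higher up. Of the 38 members without the paralogs that have 1 RefSeq transcript of known length in GENCODE 29, 9 had a reference transcript of 1500 bases or longer, and 3 of the 4 lowest members were among them (RPL27A with 4916, RPL22 with 2078 and RPS23 with 3437 bases). FPKM divides by length, so the length assumed enters each level directly. RPL37A at 1650.1 FPKM also has a long reference transcript of 3647 bases. Which lengths the authors used is not known, and the part of length was not tested. Over the 38 members the Spearman correlation of length and mean FPKM was -0.19, and over the 29 shorter than 1500 bases it was 0.18.

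GENCODE 29 names 1135 pseudogenes for 74 of the 84 members, with a median of 8.5 for a member and the most for RPL23A (91), RPSA (74) and RPL21 (66). None of these copies was listed in the deposited tables, so no reads are counted under them, and how reads shared with a copy were handled is not given in the sources used here. Number of copies and mean FPKM had a Spearman correlation of -0.07 over 77 members. Read-through genes were listed apart from their member. RPL36A-HNRNPH2 stood at 45.8, 42.1, 48.6 and 48.3 FPKM (control, R-spondin2, clone 1, clone 2), whereas RPL17-C18orf32 and RPS10-NUDT3 stayed at or below 1.14 FPKM.

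The members without the paralogs differed little between the libraries. The ratio of the highest to the lowest of the 4 libraries had a median of 1.07 for the 77 members, and 62 of them (80.5%) stayed below a ratio of 1.1. The median was 1.27 for all 12697 genes that averaged 1 FPKM or more, where 13.1% stayed below 1.1. The 594 non-members of at least 100 FPKM had a median of 1.13, with 35.2% below 1.1. They were not matched to the members in level, and the part of level in the spread was not tested. All 77 members stayed below 1.2.

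The spread can be set beside counting error. Differences below are differences of log2(FPKM + 1). Between R-spondin2 and control they had an SD of 0.04 over the 77 members and of 0.14 over the 594 non-members of at least 100 FPKM. Between clone 1 and control the SDs were 0.05 and 0.34, between clone 2 and control 0.04 and 0.25, and between the clones 0.05 and 0.15. Here too the non-members were not matched to the members in level. For 29 members with 1 reference transcript shorter than 1500 bases, the reads behind each value were estimated from the FPKM, the length and a depth of 8700000 to 8920000 reads inferred from the steps of low values. Counting alone gives these 29 members an SD of 0.026, where 0.039 to 0.050 was seen in the 4 pairs of libraries. How separate cultures of 1 condition would vary was not measured.

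The question of the R-spondin2 library is how the wild type cells differed after 1 day with the ligand. The ribosomal protein genes were slightly lower on balance, and the only members past 1.2-fold were 3 paralogs, which were higher. The median difference from the control was -0.03 over the 83 members of at least 1 FPKM (RPL3L, at 0.07 to 0.22 FPKM, was left out), against -0.01 over all 12697 genes. Of the 83 members 64 were lower and 19 higher, where 51.9% of all genes and 57.4% of the non-members of at least 100 FPKM were lower. All 64 lower members were among the 77 without the paralogs. None of the 83 passed 1.5-fold (2.00% of all genes did in either direction), and 3 passed 1.2-fold, all upward (16.1% of all genes in either direction): RPL26L1, RPL10L and RPL22L1, each of them a paralog. These 3 averaged 38.8, 5.47 and 37.7 FPKM over the libraries, where the lowest member that is not a paralog averaged 193 FPKM. They were thus not compared with members of like level.

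R-spondin2 was the lowest of the 4 libraries for 59 of the 83 members, where it was the lowest for 35.4% of all genes. Scaling each library by its median ratio to the others left 59 lower and 24 higher, with a median of -0.02, and scaling to the same sum left 61 lower and 22 higher. Counting intervals (95%, Clopper-Pearson on the estimated reads, counting error only) could be given for 31 members, those with 1 short reference transcript. The interval of 11 of these (35.5%) did not hold 0, with 10 lower and 1, RPL39, higher. The same interval missed 0 in 16.2% of all 822 genes with 1 short transcript (78 lower and 55 higher). It missed 0 in 33.0% of the 106 such non-members of at least 100 FPKM (21 lower and 14 higher). The members' share was near the latter, but these genes were not matched to the members in level.

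The largest falls were small. RPL18, a large-subunit protein and a Diamond-Blackfan anaemia gene, stood at 724 FPKM in the control, 669.6 with R-spondin2, 746 in clone 1 and 709 in clone 2, a difference of -0.11 for R-spondin2. RPS10, at the mRNA channel, stood at 1312, 1229, 1327 and 1323 FPKM (-0.09). RPL34, of the large subunit, stood at 631, 591, 651 and 633 FPKM (-0.09). In each of these genes the R-spondin2 library lay below the other 3. RPS15A, another small-subunit protein, stood at 1083, 1018, 1144 and 1119 FPKM (-0.09). RPS7, which binds MDM2, stood at 1011, 950.5, 993 and 1012 FPKM (-0.09), and its counting interval ran from -0.14 to -0.04. RPL39, at the exit tunnel for the growing peptide, went the other way with 788, 834, 818 and 849 FPKM, and its difference of 0.08 had an interval from 0.01 to 0.16.

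The comparison of the LGR4-/- clones with the control asks how cells labelled as lacking the receptor differed from wild type. Here the members were slightly higher on balance. The median difference of the clones' mean from the control was 0.04 over 83 members and 0.02 over all genes, and 65 members were higher and 18 lower, where 53.6% of all genes and 49.2% of the non-members of at least 100 FPKM were higher. In clone 1 the median was 0.05, with 65 members higher and 18 lower (53.5% of all genes higher), and in clone 2 it was 0.03, with 59 higher and 24 lower (53.2%). Clone 1 was the highest of the 4 libraries for 47 members (34.4% of all genes) and clone 2 for 22 (20.5%).

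The counts depended on scaling. With the median-ratio scaling, 54 members were higher and 29 lower in the clones' mean (median 0.02), 55 and 28 in clone 1 (0.03) and 45 and 38 in clone 2 (0.01). With the same sum the counts were 65 and 18, 65 and 18, and 55 and 28. No member passed 1.5-fold in the clones' mean (8.50% of all genes did) and 2 passed 1.2-fold, RPL39L upward and RPL10L downward (28.7%). In clone 1 alone RPL10L passed 1.5-fold downward (11.6% of all genes passed in either direction), and in clone 2 none of the members did (7.03%). Counting intervals did not hold 0 in 17 of 31 members for clone 1, with 15 higher and 2 lower, and in 10 of 31 for clone 2, with 8 higher and 2 lower. These shares of 54.8% and 32.3% stand beside 32.4% and 24.6% of all genes with 1 short transcript, and beside 54.7% and 49.1% of the 106 such non-members of at least 100 FPKM. The share for clone 1 was near that of these non-members and the share for clone 2 was lower. Their intervals that missed 0 were higher in 26 and lower in 32 for clone 1, and higher in 30 and lower in 22 for clone 2. These non-members were not matched to the members in level.

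Without the paralogs, RPL23 showed the largest rise in clone 1 and in the clones' mean, while in clone 2 RPL39 did (0.11). RPL23, which like RPL11 can bind MDM2, stood at 993 FPKM in the control, 970.3 with R-spondin2, 1103 in clone 1 and 1064 in clone 2, and both clones lay above both wild type libraries by 0.15 and 0.10 from the control. RPS21, of the small subunit, stood at 716, 722, 777 and 759 FPKM (0.12 and 0.08), and its interval for clone 1 ran from 0.03 to 0.20. RPLP1 differed by 0.11 and 0.08, with the values given above. Its partner in the stalk, RPLP2, went the other way, with 1061, 1075, 1041 and 1007 FPKM (-0.03 and -0.08), and its interval for clone 2 ran from -0.12 to -0.03. RPL6, of the large subunit, stood at 1176, 1166, 1123 and 1126 FPKM, so that both clones were below both wild type libraries (-0.07 and -0.06). RPL26, which binds the p53 mRNA, stood at 1111, 1068, 1076 and 1071 FPKM, with the control above the other 3.

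Over the members, the clones differed from each other about as much as each did from the control. Clone 2 minus clone 1 had a median of -0.03 over the 83 members, with 54 lower and 29 higher, where 50.4% of all genes were lower. One paralog, RPL10L, passed 1.5-fold (2.41% of all genes) and also 2-fold (0.252%). The counting interval did not hold 0 in 8 of 31 members (25.8%), 7 of them lower in clone 2. It did not in 21.4% of all genes with 1 short transcript and in 44.3% of the 106 non-members of at least 100 FPKM (15 lower and 32 higher). The plot of differences between libraries sets the members beside all genes.

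**Figure D4:**
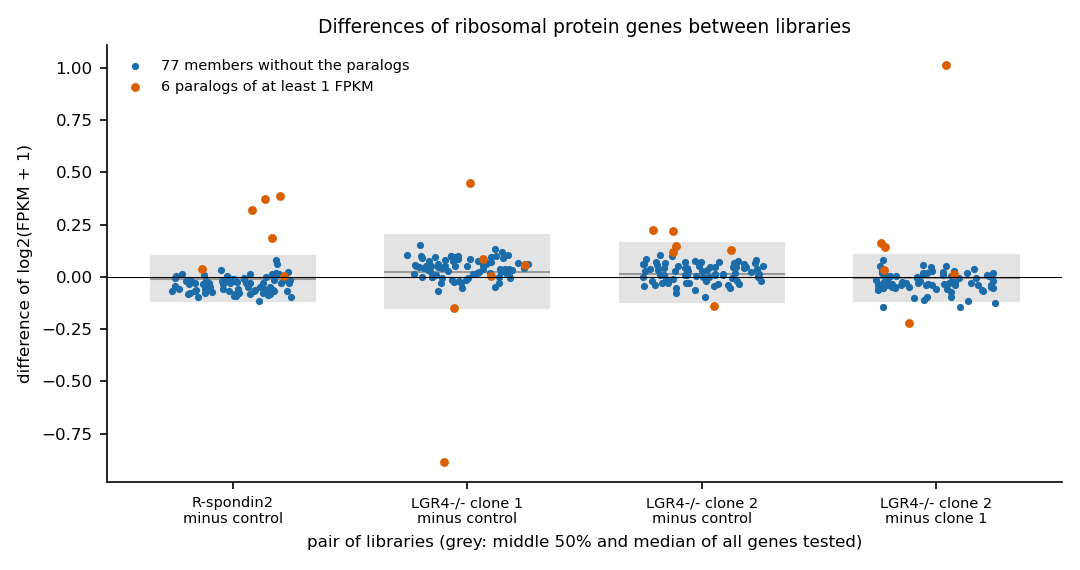
Difference of log2(FPKM + 1) (vertical axis) for 77 members without the paralogs (blue) and 6 paralogs of at least 1 FPKM (orange) in 4 pairs of libraries (horizontal axis), with the middle 50% and the median of all genes tested in grey. Points are spread sideways at random for legibility. The blue points lie within 0.151 of no difference in every pair, while RPL10L lies at -0.88 for clone 1 minus control and at 1.01 for clone 2 minus clone 1.

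The paralogs were far below their parent genes. Over the 6 of at least 1 FPKM the ratio of the highest to the lowest library had a median of 1.29, above that of the other members and close to the 1.27 of all genes. All 6 were higher with R-spondin2 than in the control, with a median difference of 0.25, where 47.8% of all genes were higher. However, RPL7L1 (0.004) and RPL39L (0.04) hardly differed from the control. In the clones' mean 4 of the 6 were higher and 2 lower, where 53.6% of all genes were higher.

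RPL22L1, which can take the place of RPL22 and acts on splicing, stood at 34.5 FPKM in the control, 43.3 with R-spondin2, 34.7 in clone 1 and 38.4 in clone 2. Its part of the summed FPKM of the pair was 15.3%, 18.5%, 14.5% and 16.0%, the largest of the paralogs in the rule. RPL22 itself stood at 191, 190.6, 204 and 201 FPKM. The R-spondin2 library was thus highest for the paralog, while the parent hardly differed between R-spondin2 and control (-0.007). RPL26L1, a close copy of RPL26, stood at 34.7, 45.7, 37.0 and 37.8 FPKM, or 3.03%, 4.10%, 3.32% and 3.41% of the pair, with R-spondin2 above the other 3 libraries. RPL22L1 and RPL26L1 have several RefSeq transcripts, so no counting interval could be given for either.

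RPL39L, known best from the male germ line, stood at 26.2 FPKM in the control, 26.9 with R-spondin2, 36.1 in clone 1 and 30.8 in clone 2, so both clones lay above both wild type libraries. It made up 3.21%, 3.12%, 4.22% and 3.50% of the pair with RPL39. The ratio to the control was 0.47 on the log2 scale in clone 1, with a counting interval from 0.18 to 0.76 on 176 and 243 estimated reads, and 0.24 in clone 2, with an interval from -0.06 to 0.54. The interval for clone 2 holds 0.

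RPL10L, a retrogene of RPL10 that is needed in male meiosis, stood at 5.59 FPKM in the control, 7.53 with R-spondin2, 2.57 in clone 1 and 6.20 in clone 2. These values rest on an estimated 40, 53, 19 and 44 reads. The log2 ratio of clone 1 to the control was -1.07 with a counting interval from -1.94 to -0.25, and that of clone 2 to clone 1 was 1.23 with an interval from 0.42 to 2.09. For R-spondin2 the ratio was 0.44 with an interval from -0.18 to 1.07, which holds 0. It is a retrocopy of RPL10, whose 464 FPKM in the control exceeded it by 83.1 times, so its values are uncertain: how reads that fit both genes were divided is not given in the sources used here. Its part of the pair was 1.19%, 1.63%, 0.534% and 1.31%.

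RPS27L, a p53 target that resembles RPS27, stood at 44.4 FPKM in the control, 50.6 with R-spondin2, 46.3 in clone 1 and 51.9 in clone 2. It made up 2.74%, 3.20%, 2.75% and 3.12% of its pair, and the clones lay apart by 0.16 on the log2 scale. RPL7L1, which serves in ribosome assembly, stood at 58.8, 59.0, 52.9 and 53.3 FPKM, with both clones below both wild type libraries by 0.15 and 0.14 from the control. RPL3L, the form of RPL3 found in heart and skeletal muscle, was hardly read, at 0.15, 0.07, 0.22 and 0.07 FPKM, while RPL3 stood between 1498 and 1675 FPKM. The bar plot of paralogs shows the 6 that were read above 1 FPKM.

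**Figure D5:**
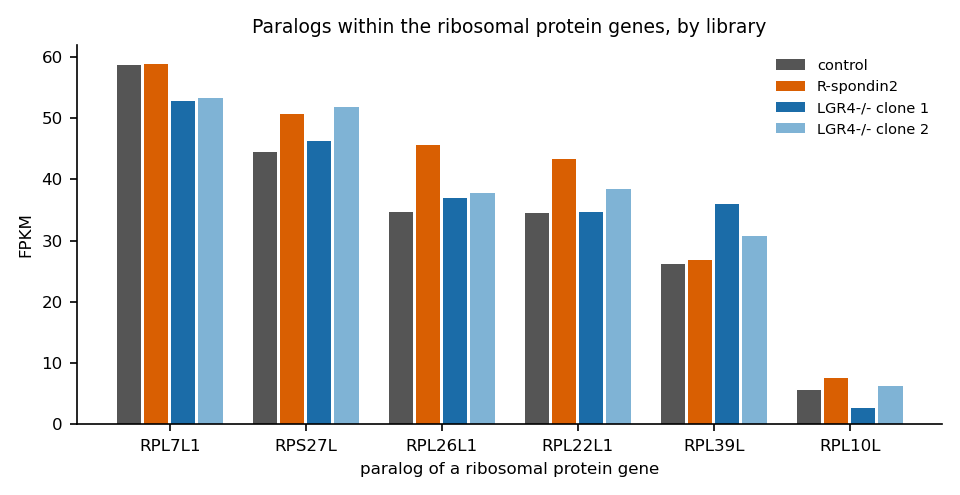
FPKM (vertical axis, from 0) of the 6 paralogs of at least 1 FPKM in the control (grey), R-spondin2 (orange), LGR4-/- clone 1 (dark blue) and LGR4-/- clone 2 (light blue) libraries, 1 library a bar. RPL26L1 and RPL22L1 are highest with R-spondin2 at 45.7 and 43.3 FPKM, and RPL39L is highest in clone 1 at 36.1 FPKM.

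Of the members, 19 are Diamond-Blackfan anaemia genes, and all 19 were read. Their median difference was -0.05 with R-spondin2 (3 higher and 16 lower) and 0.04 in the clones' mean (17 higher and 2 lower). The medians of all members were near, at -0.03 and 0.04. Of the 77 members without the paralogs, 64 were lower with R-spondin2 and 61 higher in the clones' mean. Over all genes, 51.9% were lower and 53.6% higher in these comparisons. None of the 19 passed 1.2-fold, where 16.1% and 28.7% of all genes did. RPS19, the most often mutated of them, stood at 1367.5 FPKM in the control, 1399.9 with R-spondin2, 1429 in clone 1 and 1391 in clone 2. RPL5 and RPL11, which bind MDM2 and so stabilise p53 when ribosome assembly fails, stood at 958, 951, 1013 and 979 FPKM and at 1321, 1303, 1358 and 1314 FPKM. RPS26, at the mRNA exit, stood at 413, 406, 412 and 435 FPKM. For RPS19, RPL5 and RPL11 clone 1 was the highest library, and for RPS26 clone 2 was.

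Some cytosolic ribosomal protein genes that the symbol rule does not reach lay in the range of the lower members. FAU, whose product is cut into a ubiquitin-like protein and RPS30, stood at 472 FPKM in the control, 494 with R-spondin2, 517 in clone 1 and 467 in clone 2. RPL36AL stood at 201, 189, 220 and 205 FPKM, which is 36.5%, 35.7%, 37.0% and 36.0% of its pair with RPL36A, a larger part than any paralog in the rule. Neither FAU nor RPL36AL passed 1.2-fold in either comparison.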

How the data were processed

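The authors deposited 1 table of FPKM values (2 decimals, 17894 genes with symbols and RefSeq transcripts) for each of 4 libraries. The submitters' processing notes name BWA, Bowtie, RSEM and the build hg19, without versions or roles. Kit: TruSeq RNA, 2 µg total RNA. Values were used as deposited, as log2(FPKM + 1), for the 12697 genes that averaged 1 FPKM or more. A call was a difference past 1.5-fold (also 1.2 and 2), with no test, since control, R-spondin2 and each clone have 1 library. A few genes are not reported here. Depth is not stated. It was estimated from the steps of values under 0.6 FPKM in genes with 1 RefSeq transcript shorter than 1500 bases (lengths from GENCODE 29), as 8920000, 8700000, 8910000 and 8810000 reads. With these depths, 76.0% to 78.2% of such values were whole reads to a tolerance of 0.2, compared with 31.3% to 38.7% when lengths were shuffled. The depths were chosen to fit the true lengths and were not sought again for the shuffled ones, so part of this contrast is built in. Intervals rest on the estimated depth and cover counting error only. Genes and promoters were matched by symbol. Named were the 5 highest and 5 lowest members of at least 1 FPKM, the 5 largest rises and falls of each comparison, the 5 widest ranges, members past 1.5-fold, paralog pairs, and up to 4 disease genes. Members, lists and this rule were chosen with earlier results of these data known. Alternatives were the pseudocount, filters, scaling, the fold, each clone alone and the member list. The calculation was tested on simulated data. Python 3.11.15, numpy 2.4.6, pandas 2.3.3, scipy 1.17.1 and matplotlib 3.10.9 were used.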

Additional observations from a re-analysis of the deposited data

How the results depend on the processing

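The values rest on 1 library each for R-spondin2 and each clone, 1 shared control and a depth and transcript lengths that the files do not state. Small differences between libraries thus carry no replicate error. None of the results changed sign where it had passed a fold. The number of all genes past 1.5-fold with R-spondin2, 254 as reported, was 606 with a pseudocount of 0.1 FPKM, 4 among genes of at least 100 FPKM, 424 with the same sum for every library (which raises all values, so the pseudocount counts for less), 2048 at 1.2-fold and 28 at 2-fold. For the clones' mean, 1079 as reported, it was 1621, 32, 3638 and 286 under the pseudocount, the higher minimum, 1.2-fold and 2-fold. Members past the fold rose from 0 to 3 with R-spondin2 and from 0 to 2 in the clones at 1.2-fold. The members' median in the clones was 0.016 (as reported 0.036) under the median-ratio scaling. With 1 clone left out in turn, the clones' results ran from 0 to 1 for members past 1.5-fold (RPL10L, without clone 2), from 0.03 to 0.05 for the median, from 892 to 1475 for all genes and from 19.9% to 20.3% for the share. Leaving the 10 highest non-members out of the total gave shares of 20.6% (control), 20.2% (R-spondin2) and 21.0% (clones). Members without RPL10L or without the paralogs, chosen after seeing the data, gave medians of -0.03 and 0.04 or 0.03. RPS10 in the clones moved from 0.01 to -0.01 under the median-ratio scaling. No genes of the mitochondrial genome were listed, so only the 10 genes could be left out of the total. No paired analysis was possible because the comparisons have 1 control library and share fewer than 2 replicate numbers.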

Other observations

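Other parts of the translation machinery are given as background to the ribosomal protein genes. The lists were chosen with earlier results of these data known. The differences are of log2(FPKM + 1), with 1 library each for control, R-spondin2 and each clone, and no test. Of all genes, 2.00% passed 1.5-fold with R-spondin2 and 8.50% in the clones' mean. The 38 translation elongation and initiation factors had a median of -0.02 with R-spondin2 and of -0.02 in the clones' mean, and none passed 1.5-fold. The widest were EIF4A2, an RNA helicase of initiation, at 119 FPKM in the control, 129 with R-spondin2, 161 in clone 1 and 161 in clone 2, and EIF4EBP1, which holds back initiation, at 110.2, 119.7, 78.8 and 90.0 FPKM. The 50 ribosome biogenesis factors had medians of -0.03 and -0.02. RRP9, a protein of the particle that processes small-subunit RNA, stood at 83.4, 87.7, 54.0 and 56.8 FPKM and passed 1.5-fold in clone 1 but not in the clones' mean (-0.58).

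The 20 genes of RNA polymerase I and its factors had medians of -0.05 and -0.002, and the lowest was POLR1C in both comparisons, at 26.8, 22.2, 19.0 and 24.3 FPKM. The 78 mitochondrial ribosomal protein genes had medians of 0.0002 and 0.02, and 1 passed 1.5-fold in the clones' mean. MRPS17 stood at 17.9 FPKM in the control, 22.2 with R-spondin2, 25.5 in clone 1 and 30.8 in clone 2. The 19 p53 targets of at least 1 FPKM had medians of -0.04 and 0.04, with none past 1.5-fold. With R-spondin2 8 were higher and 11 lower, and in the clones' mean 10 and 9. The widest rises among them were GDF15, a secreted stress factor, with R-spondin2 (5.01 FPKM in the control and 7.10) and DDB2, of DNA repair, in the clones (15.4 FPKM in the control, 20.1 and 21.6). The widest falls were BBC3 with R-spondin2 (12.1 FPKM in the control and 9.30) and GDF15 in the clones (4.13 and 3.87 FPKM).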
